A study of Mus musculus with 32 samples.

Results

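A set of genes of pulmonary surfactant and of the alveolar type 2 cell were followed in lung RNA of Bmal1 knockout and wild-type mice. Its 10 members are Sftpa1, Sftpb, Sftpc, Sftpd, Lamp3, Abca3, Slc34a2, Napsa, Lpcat1 and Etv5. They were chosen by name, as genes known for this cell type, and each was found as 1 of the 41687 rows of the deposited count table. All 10 passed the filter on low counts in every preparation, with at least 1268 counts in any library, a value of Etv5 in RiboZero. The samples came from 12 adult mice of 8 to 18 weeks, 6 wild-type C57b/6 animals (WT) and 6 Bmal1 knock-outs (KO), all labelled female. Bmal1, whose gene symbol is Arntl, is a core transcription factor of the circadian clock. The labels used here do not say at what time of day lungs were taken, nor whether the knockout was restricted to a tissue.

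Each lung RNA was read after up to 3 library preparations. RiboZero libraries (6 WT and 6 KO) had ribosomal RNA pulled down, PolyA libraries (6 WT and 6 KO) were selected for polyadenylated RNA, and NoSelect libraries (4 WT and 4 KO, from mice 3 to 6) had neither step. Inputs were 200 ng of RNA for RiboZero and PolyA and 15 ng for NoSelect, in which 6 preparations per animal served to raise the mRNA reads. Total counts ran from 11638594 to 25801237 in RiboZero, from 29924325 to 41548830 in PolyA and from 74979802 to 115059756 in NoSelect. The rows of Lars2 and Gm42418 held 67.8% to 71.5% of the NoSelect counts, which lowers the CPM (counts scaled to library size) of every other gene there. Levels in CPM are therefore compared only within a preparation. Log2 differences between preparations are given relative to a joint scaling of their libraries (TMM). A mouse keeps its number across preparations, so the 3 preparations are repeated readings of shared animals and not independent cohorts.

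Surfactant is a lipid and protein film that lowers surface tension in the alveoli, the air sacs of the lung. Alveolar type 2 cells make it, pack it into lamellar bodies, secrete it and take part of it back. Its proteins fall into the hydrophilic collectins SP-A and SP-D (Sftpa1, Sftpd), which bind microbes and help control the surfactant pool, and the small hydrophobic proteins SP-B and SP-C (Sftpb, Sftpc), which act in the film itself. Napsa encodes a protease that processes SP-B, Lamp3 and Abca3 encode a membrane protein and the phospholipid transporter of lamellar bodies, and Lpcat1 encodes an acyltransferase that makes dipalmitoyl phosphatidylcholine. Slc34a2 encodes the sodium-phosphate cotransporter of these cells, and Etv5 a transcription factor downstream of FGF and RAS signalling that maintains their identity.

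The NoSelect library of KO mouse 6 is labelled as liver, whereas its RNA carried the surfactant genes at lung level. Its Sftpc level was 1867 normalised CPM, against 1268 to 1742 in the other 7 NoSelect libraries. The summed level of 12 hepatocyte markers was 2.13 CPM in it and 1.28 to 2.29 CPM in the others, and albumin had 16 counts. The 3 libraries of KO mouse 6 also held 2195 to 2967 counts of the Y-linked gene Ddx3y, which was at 0 in all other libraries, although every mouse is labelled female. KO mouse 6 had the highest KO level of most members, so results are given with and without it where it matters. Arntl itself fell from 38.9 ± 3.61 to 21.9 ± 1.66 normalised CPM (SD, n = 6 each) in RiboZero and from 10.1 ± 0.302 to 6.28 ± 0.355 (n = 4 each) in NoSelect, with no overlap of the genotypes. In PolyA it fell from 35.4 ± 2.63 to 29.3 ± 2.18 (n = 6 each), where the genotypes overlapped. The log2 fold changes were -0.83, -0.69 and -0.27 in that order (edgeR quasi-likelihood test, adjusted p = 2.46e-05, 0.000451 and 0.0262). The PolyA call of Arntl was lost in 8 of the 12 fits without 1 library, at adjusted p of up to 0.0788. From a list of 7 target and clock genes, edgeR called Arntl, Nr1d1, Nr1d2, Npas2, Cry1 and Per2 in each preparation. In each, 3 were higher and 3 lower, and 3.46%, 4.03% and 2.17% of all genes were called in RiboZero, PolyA and NoSelect. The list's lowest log2 fold changes there were -4.86, -5.40 and -4.77, and its highest 1.71, 1.80 and 1.62.

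The 250 bases upstream of the RefSeq start site are shown for Sftpa1, the member that fell in each preparation, and for Sftpb, which was not called in any. Both genes lie on the forward strand, at chr14:41131538-41131787 and chr6:72304360-72304609 for these windows (GRCm38.p6), and both sequences are given 5′ to 3′. Capitals mark CTCAAG, a core sequence recognised by NKX2-1, the homeodomain factor that drives surfactant gene transcription.
Sftpa1: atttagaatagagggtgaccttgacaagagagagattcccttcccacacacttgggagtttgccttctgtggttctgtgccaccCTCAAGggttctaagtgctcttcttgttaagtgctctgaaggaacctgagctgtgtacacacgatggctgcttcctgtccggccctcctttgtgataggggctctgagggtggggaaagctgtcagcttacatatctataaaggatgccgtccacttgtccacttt
Sftpb: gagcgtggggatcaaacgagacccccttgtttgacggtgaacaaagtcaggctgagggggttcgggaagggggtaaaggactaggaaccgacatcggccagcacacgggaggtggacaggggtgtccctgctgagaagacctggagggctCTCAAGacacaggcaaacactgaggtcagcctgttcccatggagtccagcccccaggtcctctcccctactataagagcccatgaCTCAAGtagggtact
The match in Sftpa1 lies at -166 to -161 from the start site, and those in Sftpb at -100 to -95 and -15 to -10. Promoter windows of 300 bases (250 before and 50 after the start) were found for 7 of the 10 members, all but Sftpc, Sftpd and Napsa. Among these 7 members, CTCAAG, searched on both strands, was found in the windows of Sftpa1 and Sftpb alone. It was present in 15.9% of all 32851 RefSeq windows. The E-box CACGTG, to which the BMAL1 and CLOCK pair binds, was in none of the windows of these 7 genes and in 7.15% of all windows. CACGTT, a related E-box form, and TAGGTCA, the core bound by REV-ERB and ROR receptors, were likewise absent from them and present in 4.685% and 2.606% of all windows. Such matches describe the letters of these windows only and say nothing about binding.

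In wild-type lungs the members spanned a wide range of abundance. Per kilobase of merged exons, Sftpc stood first in each preparation, at 5510 ± 657 normalised CPM per kb in RiboZero, 13229 ± 1571 in PolyA (SD, n = 6 each) and 1561 ± 132 in NoSelect (n = 4). Sftpb and Sftpa1 followed, at 1023 ± 77.8 and 869 ± 97.4 normalised CPM per kb in RiboZero, where their libraries overlapped. Their libraries did not overlap in PolyA or NoSelect. Slc34a2 and Sftpd came next, with Slc34a2 the higher in RiboZero, where the libraries of both overlapped, and in NoSelect, and Sftpd the higher in PolyA. Lamp3, Abca3, Napsa and Lpcat1 lay close together, at 64.3 to 107 normalised CPM per kb in RiboZero, and several of these neighbours overlapped. Etv5, the transcription factor, was the lowest in every preparation, at 33.2 ± 6.51 normalised CPM per kb in RiboZero. The 10 genes together held 1.25% to 1.60% of the RiboZero counts in WT libraries and 1.06% to 1.49% in KO libraries, outside the rows of Lars2 and Gm42418. The same shares were 1.94% to 2.68% and 1.76% to 2.36% in PolyA, and 1.19% to 1.42% and 0.961% to 1.33% in NoSelect, so that the genotypes overlapped in all 3.

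**Figure D1:**
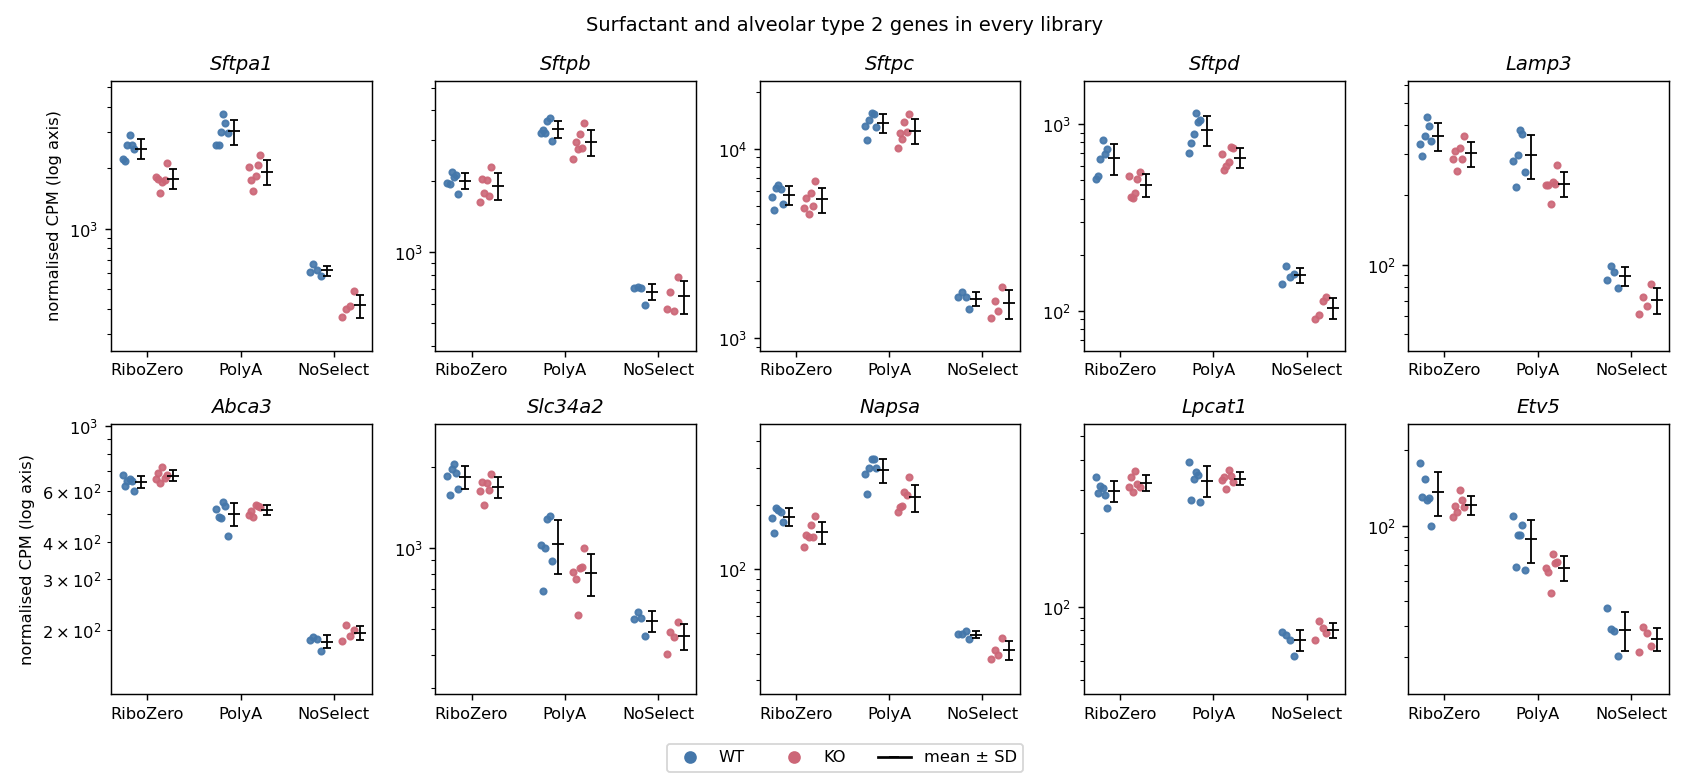
Level of each of the 10 genes in every library, in normalised CPM on a log axis, by preparation and genotype; points are libraries and bars the mean ± SD. WT and KO points are separate for Sftpa1 in all 3 preparations and for Sftpd in NoSelect, and they overlap for the other genes.

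The effect of the knockout on these genes was asked within each preparation. Sftpa1 fell in all 3 preparations, Sftpd in PolyA and NoSelect, and Napsa in PolyA, while edgeR called the other 7 members in none. DESeq2 also called Lamp3 in PolyA and NoSelect (adjusted p = 0.0445 and 0.0226), and called 2, 4 and 4 members in all. Over all genes DESeq2 called 976, 1381 and 877, beside 579, 694 and 372 by edgeR. The edgeR shares are therefore not the background of the DESeq2 counts, here or for the gene lists below. Of the 10 members, edgeR called 1 lower in RiboZero, 3 in PolyA and 2 in NoSelect, and 0 were called higher, at an adjusted p under 0.05. Among all genes tested, 1.63%, 2.41% and 0.981% were called lower in those preparations, and 3.46%, 4.03% and 2.17% in either direction. At an unadjusted p under 0.05 stood 4, 6 and 4 members, beside 16.4%, 18% and 15.7% of all genes. The median log2 fold change of the members was -0.15, -0.37 and -0.15, and 8 of the 10 were below 0 in each preparation. Of all genes tested, 50%, 50.8% and 49.8% were below 0, with medians of -1.23e-05, -0.00292 and 0.000533. The preparations share mice and the members varied together between mice, so these counts are not independent of each other. Whole lung was sequenced, so fewer cells of a type and less RNA per cell cannot be told apart for any of these genes. These p-values set the difference between genotypes against the spread between animals of a genotype.

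**Figure D2:**
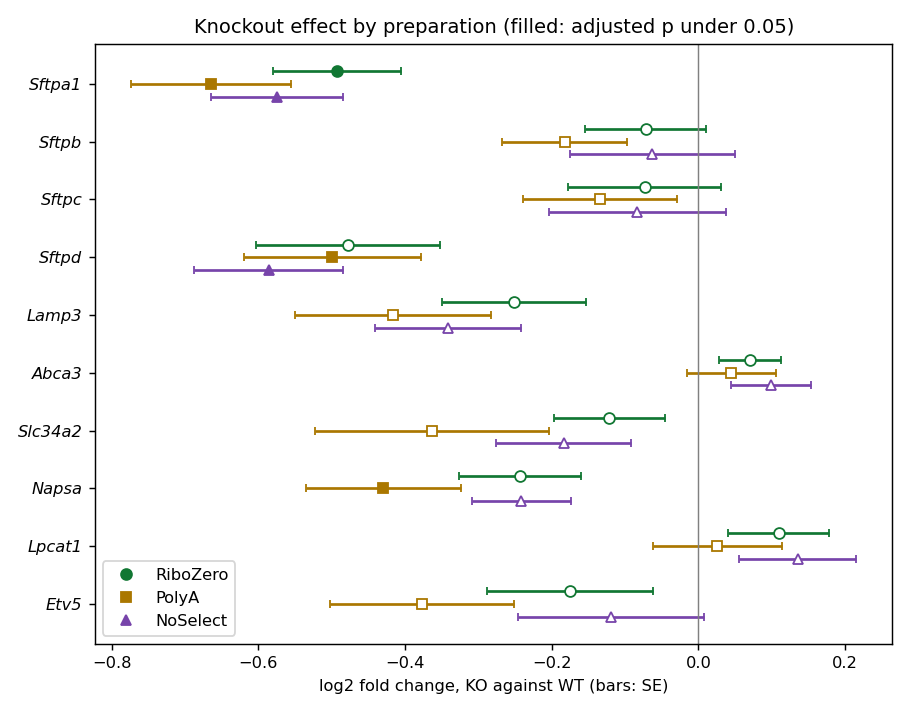
Log2 fold change of KO against WT for each member (horizontal axis, bars show the standard error), with 1 marker per preparation, filled where the adjusted p was under 0.05. Sftpa1 and Sftpd lie furthest left, between -0.66 and -0.48, whereas Abca3 and Lpcat1 lie slightly right of 0.

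Sftpa1, which encodes the main collectin of surfactant, showed the clearest difference between genotypes. In RiboZero its WT libraries ran from 2154 to 2900 normalised CPM with a median of 2531, and its KO libraries from 1498 to 2116 with a median of 1748. In PolyA the WT libraries ran from 2589 to 3674 (median 2982) and the KO libraries from 1534 to 2298 (median 1910). In each case the highest KO library, from mouse 6, lay below the lowest WT library, from mouse 2. The NoSelect WT libraries of mice 6, 3, 5 and 4 stood at 582, 613, 620 and 667 normalised CPM, and the KO libraries of mice 3, 4, 5 and 6 at 366, 398, 412 and 492, again with no overlap. Such a separation with KO lower was found for 1.53%, 1.9% and 4.62% of all genes in RiboZero, PolyA and NoSelect, and in either direction for 2.89%, 3.21% and 9.51%. The log2 fold changes were -0.49 ± 0.088, -0.66 ± 0.109 and -0.57 ± 0.090 (SE), a drop to 71.1%, 63.1% and 67.2% of the WT level (edgeR, adjusted p = 0.00776, 0.00457 and 0.0178). The calls in RiboZero and PolyA held without any single library. The NoSelect call was lost without WT 4, KO 4, WT 5 or KO 5, with adjusted p from edgeR of 0.0593 to 0.0666 and log2 fold changes of -0.57 to -0.54.

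Sftpd encodes the second collectin and lies on the same chromosome, at chr14:41172214-41185149 on the reverse strand, near Sftpa1 at chr14:41131782-41136452 on the forward strand (GRCm38). Its RiboZero libraries ran from 508 to 825 normalised CPM in WT (median 676) and from 402 to 557 in KO (median 470). In PolyA they ran from 702 to 1157 (median 961) and from 566 to 754 (median 660). WT mice 1 and 2 were the lowest WT animals in both. Both overlapped the upper KO animals in RiboZero, and mouse 1 alone did so in PolyA. In NoSelect, which did not include those mice, the WT libraries stood at 140, 152, 158 and 175 and the KO libraries at 90.1, 94.8, 112 and 119 normalised CPM, with no overlap. The log2 fold changes were -0.48 ± 0.126, -0.50 ± 0.121 and -0.59 ± 0.101 (SE; edgeR, adjusted p = 0.0576, 0.0380 and 0.0255), so that RiboZero missed the threshold. Restricted to mice 3 to 6, the RiboZero value was -0.62 (edgeR, adjusted p = 0.0338). Single libraries decided these calls. RiboZero passed without WT 1, WT 2 or KO 6 (edgeR, adjusted p = 0.0307, 0.0375 and 0.0462), whereas PolyA failed without any 1 of KO 1 to KO 5 or WT 3 to WT 6, at adjusted p of 0.0522 to 0.0989. NoSelect failed without WT 4, KO 4, WT 5, KO 5 or WT 6, at 0.0597 to 0.0838.

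Mbl1, a serum collectin gene that lies between Sftpa1 and Sftpd, was looked up after the values of both were known. It had 11 to 90 counts per library, and KO differed from WT by -0.07, -0.15 and -0.05 on the log2 scale in the order above (edgeR, adjusted p = 0.926, 0.728 and 0.952).

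The genes of the hydrophobic surfactant proteins were called in no preparation, by edgeR or by DESeq2. Sftpc, the most abundant member, ran from 4761 to 6467 normalised CPM in WT (median 5821) and from 4504 to 6782 in KO (median 5240) in RiboZero. The highest and the lowest of these 12 libraries were both KO, from mice 6 and 3. Its log2 fold changes were -0.07 ± 0.105, -0.13 ± 0.105 and -0.08 ± 0.121 (SE; edgeR, adjusted p = 0.799, 0.546 and 0.806). Sftpb ran from 1771 to 2195 normalised CPM in WT (median 2028) and from 1633 to 2294 in KO (median 1899) in RiboZero. Its log2 fold changes were -0.07 ± 0.083, -0.18 ± 0.085 and -0.06 ± 0.113 (SE; edgeR, adjusted p = 0.737, 0.283 and 0.852). Without KO 6 the log2 fold changes were -0.15, -0.20 and -0.20 for Sftpc and -0.13, -0.24 and -0.17 for Sftpb, none of them called (edgeR, lowest adjusted p 0.118, for Sftpb in PolyA). In PolyA, 4 of the 6 KO libraries of Sftpb lay below the lowest WT library.

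Napsa, whose protease acts on the SP-B precursor, was called in PolyA only. There its WT libraries ran from 225 to 330 normalised CPM (median 298) and its KO libraries from 186 to 270 (median 211). The lowest WT library, from mouse 2, lay below the KO libraries of mice 4 and 6, and all other WT libraries lay above every KO library. The log2 fold change was -0.43 ± 0.106 in PolyA, and -0.24 ± 0.083 and -0.24 ± 0.068 in RiboZero and NoSelect (SE; edgeR, adjusted p = 0.0407, 0.147 and 0.125). The PolyA call was lost in 10 of the 12 fits without 1 library, all but those without WT 2 or KO 6, at adjusted p of 0.0643 to 0.109. Without KO 6, Napsa passed in all 3 preparations, at log2 fold changes of -0.30, -0.50 and -0.31 (edgeR, adjusted p = 0.0488, 0.0184 and 0.0183 for RiboZero, PolyA and NoSelect). Napsa overlaps the antisense gene Gm15396, Slc34a2 the antisense gene Gm17182, and Abca3 the opposite-strand genes Gm25618 and D330041H03Rik. The strand setting of the counting is not given in the sources used here, so reads of each pair could be mixed, in the comparisons of preparations too.

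edgeR did not call the lamellar body and lipid enzyme genes in any preparation. Lamp3 had log2 fold changes of -0.25 ± 0.098, -0.42 ± 0.134 and -0.34 ± 0.099 (SE; edgeR, adjusted p = 0.209, 0.113 and 0.137). Its PolyA libraries ran from 217 to 383 normalised CPM in WT (median 289) and from 183 to 269 in KO (median 222), with all 6 KO libraries below the WT median. Lamp3 passed in edgeR without WT 2 in PolyA (adjusted p = 0.0328), without KO 6 in NoSelect (0.0498) and in the PolyA contrast of a fit of all 32 libraries (0.0452), beside the DESeq2 calls given above. Abca3, the phospholipid transporter, had values slightly above 0, at 0.07 ± 0.042, 0.05 ± 0.061 and 0.10 ± 0.054 (SE; edgeR, adjusted p = 0.453, 0.754 and 0.438). Its RiboZero libraries ran from 598 to 680 normalised CPM in WT (median 650) and from 640 to 725 in KO (median 670). Lpcat1, the acyltransferase of surfactant phosphatidylcholine, had values of 0.11 ± 0.068, 0.03 ± 0.088 and 0.14 ± 0.080 (SE; edgeR, adjusted p = 0.476, 0.918 and 0.470). Its NoSelect libraries stood at 62.5, 73.3, 76.7 and 78.3 normalised CPM in WT and at 73.3, 77.7, 81.4 and 87.0 in KO, so that the genotypes overlapped.

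Slc34a2, the phosphate cotransporter gene, had log2 fold changes of -0.12 ± 0.076, -0.36 ± 0.159 and -0.18 ± 0.092 (SE; edgeR, adjusted p = 0.473, 0.250 and 0.386). It varied most in PolyA, from 691 to 1311 normalised CPM in WT (median 1011) and from 563 to 999 in KO (median 826). Etv5 had log2 fold changes of -0.17 ± 0.113, -0.38 ± 0.125 and -0.12 ± 0.126 (SE; edgeR, adjusted p = 0.490, 0.122 and 0.714). Its PolyA libraries ran from 66.6 to 109 normalised CPM in WT (median 91.9) and from 54.0 to 77.1 in KO (median 69.5). All 6 KO libraries of both genes lay below the WT median in PolyA, and the genotypes overlapped.

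Counts of members were next set against Sftpc in the same library, which compares members with each other and not with the whole lung. This ratio was chosen after the values were seen. Whole lung was sequenced, so counts of a member may also come from cells other than type 2 cells, which was not tested. In all, 27 ratios (9 genes in 3 preparations) were tested by two-sided exact permutation tests. The smallest possible p of these tests is 0.00216 for 6 against 6 libraries and 0.0286 for 4 against 4. In RiboZero, WT libraries held 39.7 to 48.7 Sftpa1 counts per 100 Sftpc counts (median 43.6) and KO libraries 29.1 to 36.7 (median 32.7), without overlap. In PolyA they held 19.7 to 23.8 (median 22.4) and 13.2 to 19.8 (median 14.7), where 1 KO library lay inside the WT range. In NoSelect they held 37.2 to 41.0 (median 38.0) and 25.3 to 29.7 (median 27.6), without overlap. Relative to Sftpc, Sftpa1 thus stood in KO at 75.0%, 69.4% and 71.4% of WT (exact permutation test, adjusted p = 0.0292, 0.0292 and 0.0701). The unadjusted p in NoSelect was 0.0286, the smallest possible there. The share of all genes whose ratio to Sftpc separates the genotypes is not given here. In normalised CPM, 2.89%, 3.21% and 9.51% of all genes separated in either direction in RiboZero, PolyA and NoSelect.

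Sftpd relative to Sftpc stood at 76.3%, 78.6% and 70.9% of WT in RiboZero, PolyA and NoSelect (exact permutation test, adjusted p = 0.0668, 0.0701 and 0.0701). Napsa stood at 81.7% in PolyA, from 2.03 to 2.30 counts per 100 Sftpc counts in WT to 1.62 to 1.84 in KO without overlap (exact permutation test, adjusted p = 0.0292). Lamp3 stood at 88.8% in RiboZero (exact permutation test, adjusted p = 0.0292), 83.6% in PolyA and 84.0% in NoSelect. The NoSelect ratios of Sftpd and Lamp3 did not overlap between genotypes either. Sftpb stood at 100.0%, 96.6% and 101.6%, and the ratios of Abca3 and Lpcat1 lay between 110.9% and 117.5% with no adjusted p under 0.05 (exact permutation test, lowest 0.175). Without KO mouse 6 the ratio of Sftpa1 was 75.8%, 69.7% and 72.4% of WT (exact permutation test, adjusted p = 0.0390, 0.0468 and 0.0908). Lamp3 passed in RiboZero alone, at 89.7%, and Napsa in PolyA alone, at 81.5% (exact permutation test, adjusted p = 0.0468 and 0.0390). Sftpd, at 77.2%, 80.0% and 72.7%, passed in no preparation (exact permutation test, adjusted p = 0.0908 in each). In the same comparison the ratio of Lpcat1 to Sftpc stood at 120.4%, 118.4% and 127.3% of WT, and passed in RiboZero (exact permutation test, adjusted p = 0.0390, 0.0908 and 0.0908). Abca3 stood at 116.1%, 118.3% and 122.0% (exact permutation test, adjusted p = 0.0779, 0.0908 and 0.0908). With 4 against 3 NoSelect libraries no unadjusted p could fall below 0.0571. Sftpb passed in no preparation, with or without that mouse.

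**Figure D3:**
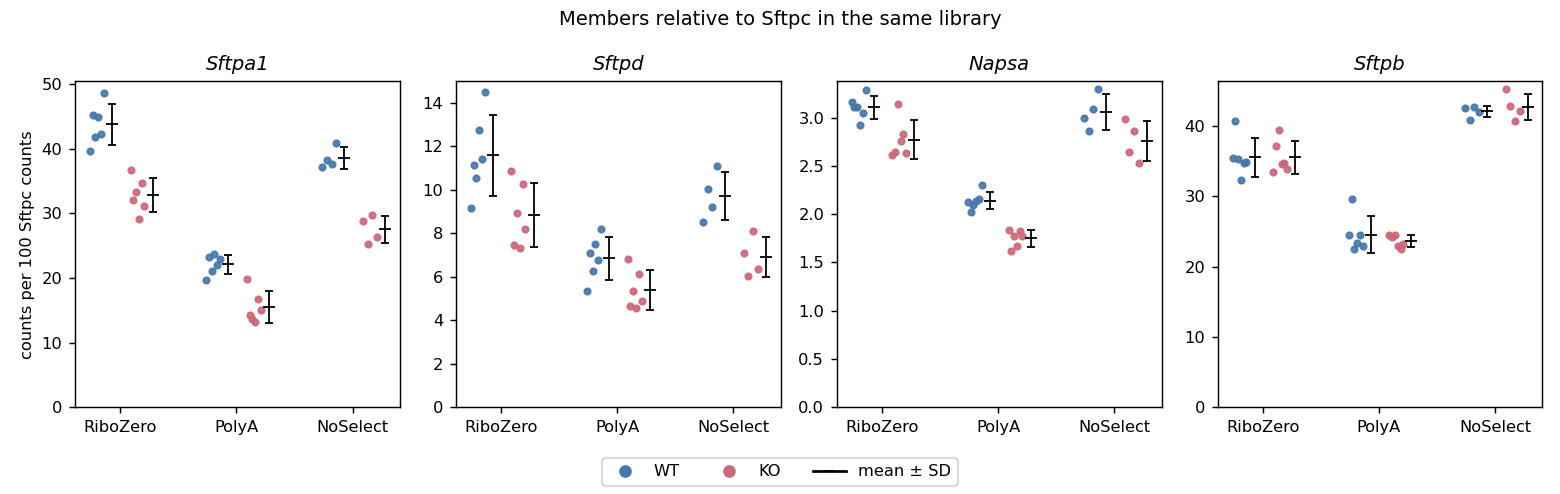
Counts of Sftpa1, Sftpd, Napsa and Sftpb per 100 counts of Sftpc in the same library (vertical axes start at 0), by preparation and genotype; points are libraries and bars the mean ± SD. Sftpa1 libraries separate by genotype in RiboZero (WT from 39.7, KO up to 36.7) and NoSelect (WT from 37.2, KO up to 29.7), while Sftpb libraries overlap throughout.

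Other genes enriched in type 2 cells moved in both directions. Of a list of 18, edgeR called 5 in RiboZero, 5 in PolyA and 3 in NoSelect, with 2 higher in each. Among all genes, 3.46%, 4.03% and 2.17% were called. An unadjusted p under 0.05 was found for 9, 9 and 8 of the 18, beside 16.4%, 18% and 15.7% of all genes. DESeq2, which called 976, 1381 and 877 genes in all, called 5, 8 and 7 of the 18. The list's median log2 fold change was -0.03, -0.07 and -0.09. Cxcl15, a lung chemokine, rose from 726 ± 63.6 to 1076 ± 110 normalised CPM in RiboZero (SD, n = 6 each), with log2 fold changes of 0.57, 0.54 and 0.48 (edgeR, adjusted p = 0.00105, 0.00395 and 0.0262). Its genotypes did not overlap in any preparation. Bex2 rose by 1.03, 0.94 and 1.04 on the log2 scale from a low level, at 9.48 normalised CPM in WT and 19.3 in KO in RiboZero (edgeR, adjusted p = 0.000304, 0.00106 and 0.00268). Lyz2, a lysozyme gene that macrophages express as well, fell by 0.39, 0.54 and 0.48 (edgeR, adjusted p = 0.0240, 0.0128 and 0.0345). Mlc1 fell by 0.46 and 0.64 in RiboZero and PolyA (edgeR, adjusted p = 0.0111 and 0.0128), and Ctsh, a cathepsin that processes SP-B and SP-C, by 0.34 and 0.38 (adjusted p = 0.0327 and 0.0130). In NoSelect, Mlc1 and Ctsh had values of -0.48 and -0.38 (edgeR, adjusted p = 0.0950 and 0.0752). The calls of Lyz2 and Cxcl15 in NoSelect and of Lyz2 and Ctsh in RiboZero each depended on single libraries, at adjusted p of up to 0.114, 0.0787, 0.0567 and 0.0783 without 1.

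The genes that build surfactant lipid were mostly not called. Below 0 lay 11, 14 and 13 of the 17 in RiboZero, PolyA and NoSelect, beside 50%, 50.8% and 49.8% of all genes. Their median log2 fold changes were -0.13, -0.13 and -0.08. Of 17, edgeR called 0 in RiboZero or NoSelect, where DESeq2 called 4 and 3. There 8 and 7 had an unadjusted p under 0.05, beside 16.4% and 15.7% of all genes. In PolyA edgeR called 2. Those were Pcyt1a, the rate-limiting enzyme of phosphatidylcholine synthesis, which rose by 0.21 on the log2 scale, and Elovl1, a fatty acid elongase, which fell by 0.36 (edgeR, adjusted p = 0.0454 and 0.00977). Pcyt1a had nearly equal values of 0.22 and 0.23 in RiboZero and NoSelect, where it missed the threshold (adjusted p = 0.0573 and 0.0723). Of 13 genes of lamellar bodies and surfactant turnover, 4, 5 and 3 had an unadjusted p under 0.05 in RiboZero, PolyA and NoSelect. Of all genes, 16.4%, 18% and 15.7% did. DESeq2 called 2, 3 and 2 of the 13. edgeR called 1, 2 and 1, all lower. Beside Ctsh they were the GM-CSF receptor chains Csf2ra in PolyA (log2 fold change -0.34) and Csf2rb in NoSelect (-0.23), through which alveolar macrophages are driven to clear surfactant (edgeR, adjusted p = 0.0490 and 0.0395). Fits without 1 library kept the call of Elovl1 in 12 of 12, of Pcyt1a in 4 of 12, of Csf2ra in 2 of 12 and of Csf2rb in 1 of 8.

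Of 14 transcription factors that control type 2 genes, edgeR called 1 lower in each preparation and 0 higher. At an unadjusted p under 0.05 stood 5 of 13 tested in RiboZero, 6 of 14 in PolyA and 2 of 13 in NoSelect. Of all genes, 16.4%, 18% and 15.7% stood there. DESeq2 called 3, 2 and 2 of these factors. Nkx2-1 had log2 fold changes of -0.00 ± 0.081, -0.04 ± 0.063 and -0.02 ± 0.065 (SE; edgeR, adjusted p = 0.998, 0.796 and 0.914). Foxa1 and Foxa2, forkhead factors of lung epithelium, had values of 0.16 to 0.30 that did not pass (adjusted p = 0.137 to 0.487). Cebpa fell by 0.22 in PolyA alone (adjusted p = 0.0454), with values of -0.15 and -0.12 in RiboZero and NoSelect. Tfcp2l1, a grainyhead family factor of epithelia, fell by 0.44 in both RiboZero and NoSelect (edgeR, adjusted p = 0.00203 and 0.0395), with a value of -0.45 in PolyA (adjusted p = 0.0762). Around Etv5, 1 of 13 genes of FGF and RAS signalling was called, Fgfr1, which fell by 0.38 in PolyA (edgeR, adjusted p = 0.0211). On that list, 2 of 12 tested in RiboZero, 4 of 13 in PolyA and 3 of 12 in NoSelect had an unadjusted p under 0.05. Of all genes, 16.4%, 18% and 15.7% did. DESeq2 called 0, 1 and 1 of the list. Etv4, the close relative of Etv5, passed the filter on low counts in PolyA alone, at 0.506 normalised CPM in WT and 0.476 in KO. Fits without 1 library kept the RiboZero call of Tfcp2l1 in 12 of 12 and its NoSelect call in 1 of 8. They kept the call of Fgfr1 in 10 of 12, losing it without KO 2 or WT 5 (adjusted p up to 0.0584), and that of Cebpa in 1 of 12.

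Markers of other lung cells were measured beside the members. For comparison, 16.4%, 18% and 15.7% of all genes had an unadjusted p under 0.05 in RiboZero, PolyA and NoSelect. The edgeR calls covered 3.46%, 4.03% and 2.17% of all genes. edgeR called 0 of the 6 airway secretory markers (2, 1 and 2 at an unadjusted p under 0.05, and 0, 0 and 1 by DESeq2), and all 6 lay above 0 in each preparation, with medians of 0.47, 0.44 and 0.45 on the log2 scale. Their summed level ran from 10139 to 16825 normalised CPM in WT and from 13561 to 18087 in KO in RiboZero. The 6 ciliated cell markers also all lay above 0, with medians of 0.30, 0.26 and 0.24 and 0 calls by edgeR (3, 3 and 2 at an unadjusted p under 0.05, and 1, 0 and 0 by DESeq2). Of 10 alveolar type 1 markers, edgeR called Ager alone, higher by 0.23 in RiboZero (adjusted p = 0.0435). In RiboZero, PolyA and NoSelect, 2, 4 and 1 of these 10 lay below 0, with medians of 0.06, 0.02 and 0.05. DESeq2 called 2, 0 and 1 of them. Of 8 alveolar macrophage markers, edgeR called 2, Mrc1 and Cd68, both lower in PolyA, and DESeq2 called 0, 2 and 1. Below 0 lay 5, 7 and 6 of these 8. The 7 general epithelial markers had medians of -0.04, 0.03 and 0.04, with 1 call, Cldn4, higher in PolyA. edgeR called 0 of 6 endothelial, 6 lymphocyte and neutrophil and 5 blood markers. It also called 0 cardiomyocyte markers, of which 5, 6 and 5 were tested in RiboZero, PolyA and NoSelect. Of the endothelial markers, 1, 0 and 0 lay below 0, with medians of 0.16, 0.12 and 0.15. At an unadjusted p under 0.05 stood 1 to 2 of the endothelial, 0 to 1 of the cardiomyocyte, 2 of the lymphocyte and neutrophil and 0 of the blood markers in a preparation, and DESeq2 called 1 endothelial marker in NoSelect and 2 lymphocyte and neutrophil markers in each. Of 6 fibroblast markers, edgeR called Dcn lower in PolyA and Col1a1 higher in NoSelect. Of the 12 hepatocyte markers, 2, 5 and 4 were tested in RiboZero, PolyA and NoSelect, and edgeR called Ahsg lower in PolyA. DESeq2 called 2, 1 and 3 fibroblast markers and 1, 2 and 1 hepatocyte markers. None of the marker lists had a gene at 0 counts in every library, and the part of these cell types in the results on the members was not tested.

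Differences between mice of 1 genotype were shared by the preparations. For each member, the deviation of a mouse from its genotype mean in PolyA was set against that in RiboZero over the 12 mice. Pearson's r ran from 0.716 for Etv5 to 0.960 for Sftpd, and Spearman's rho from 0.629 to 0.944, over 10 tests (permutation test, adjusted p of r at most 0.00675, of rho at most 0.0325). Without the 2 mice farthest from the median, r ran from 0.616 to 0.938. Such values are not given here for other genes, so this agreement is not shown to be particular to the members. Across 11527 genes, the deviations of a mouse in PolyA and RiboZero correlated at r of 0.390 to 0.744. Sftpd reached r = 0.960 (permutation p = 1.99998e-05) and rho = 0.944, and 0.938 without those 2 mice. For Slc34a2, r was 0.884 and rho 0.720 (permutation p = 0.000190 and 0.0106), and r was 0.700 without 2 mice. The mean standardised deviation of all 10 members was highest in WT 4 and KO 6 and lowest in WT 2, KO 3 and WT 6, with values of 1.11, 1.02, -1.27, -1.01 and -0.78 in PolyA and 0.86, 1.05, -1.03, -1.07 and -0.88 in RiboZero.

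**Figure D4:**
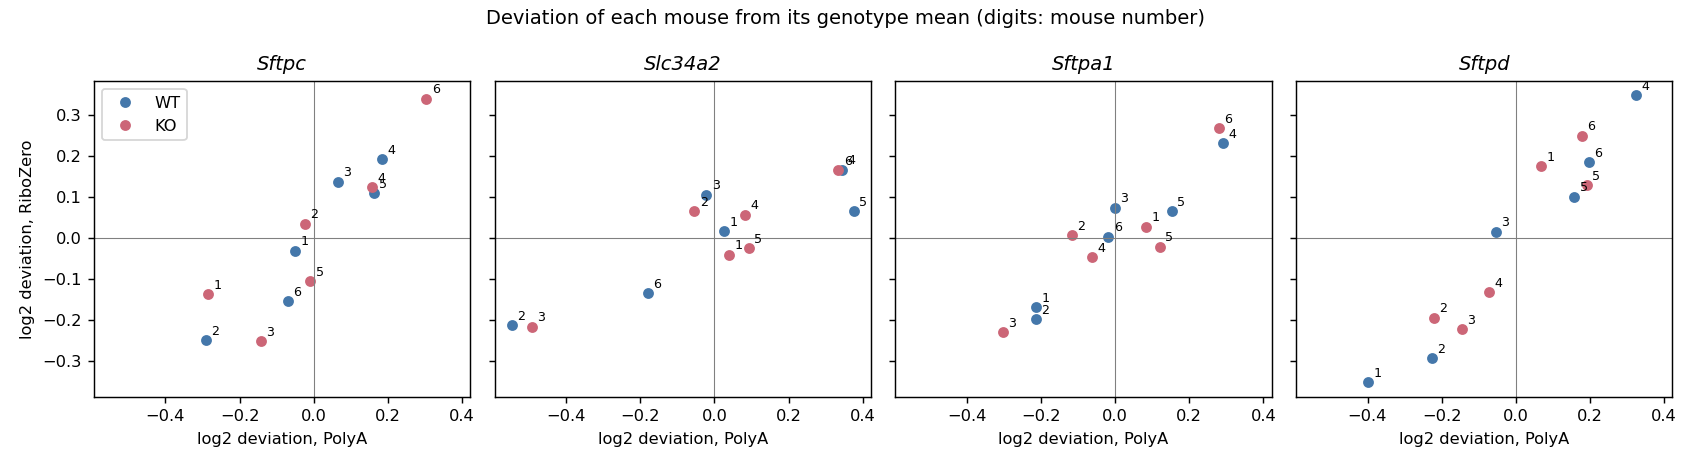
Deviation of each mouse from the mean of its genotype, in log2 units, in PolyA (horizontal axis) and RiboZero (vertical axis) for Sftpc, Slc34a2, Sftpa1 and Sftpd; digits are mouse numbers and colours the genotypes. Points run from lower left to upper right in each panel, with r between 0.884 for Slc34a2 and 0.960 for Sftpd, and Slc34a2 spreads more widely in PolyA than in RiboZero.

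In PolyA most members varied together from mouse to mouse, and the lowest correlation was that of Sftpd. Each member's deviation was compared with the mean of the other 9 over the 12 mice in PolyA, in 10 tests. Lamp3 (r = 0.958, rho = 0.930) and Slc34a2 (r = 0.944, rho = 0.923) followed the others most closely (permutation test, adjusted p of r = 4.99995e-05 for both). Sftpc, Napsa, Sftpa1 and Etv5 had r of 0.850, 0.826, 0.755 and 0.706 (permutation test, adjusted p = 0.00200, 0.00257, 0.0108 and 0.0174). Abca3, Sftpb and Lpcat1 had r of 0.675, 0.664 and 0.581 (permutation test, adjusted p = 0.0193, 0.0235 and 0.0527). Sftpd had r = 0.440 and rho = 0.490 (permutation p = 0.151 and 0.110), and r = 0.252 without the 2 farthest mice. In RiboZero the order differed, with Sftpc (0.967) and Slc34a2 (0.966) highest, then Lamp3, Napsa, Sftpb, Abca3 and Sftpa1 at 0.858, 0.836, 0.773, 0.699 and 0.674. Lpcat1, Etv5 and Sftpd were the lowest there, at r of 0.453, 0.321 and 0.241. These RiboZero values are given without a test. Whether the r of Sftpd differs from those of the others was not tested.

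Among 11237 other genes, those whose deviations most resembled the mean of the members over the 12 PolyA libraries were Enpep, Mlc1, Adora2b, Tmem164, Egfl6 and Mme. Their Pearson's r was 0.965, 0.946, 0.941, 0.934, 0.928 and 0.916, given as a description, since libraries share depth and mice. The same r over the 12 RiboZero libraries was 0.874, 0.879, 0.557, 0.483, 0.715 and 0.895. Mlc1 and Egfl6 also stand on the list of type 2 genes. Enpep, an aminopeptidase gene, had knockout log2 fold changes of 0.02, -0.09 and 0.03 and no call.

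The library preparation moved the measured level of 2 members by over 1 log2 unit in both comparisons with PolyA. Each pair of preparations was compared over both genotypes, and a call needed a log2 difference of 1 or more in size beside an adjusted p under 0.05. These differences are relative to the TMM scaling and depend on it. The main fits took the libraries of a mouse as independent. Slc34a2 and Etv5 were called in both comparisons of PolyA, 2 of 10 members, beside 23.6% of all genes against RiboZero and 25.1% against NoSelect. Both were lower in PolyA, as were 16.6% and 15.1% of all genes. Slc34a2 differed by -1.28 ± 0.097 from RiboZero and by -1.27 ± 0.112 from NoSelect, and Etv5 by -1.06 ± 0.091 and -1.07 ± 0.101 (SE, log2 scale; edgeR, adjusted p at most 4.04e-09). Between RiboZero and NoSelect, 0 of 10 members were called, beside 4.3% of all genes (2.56% lower in RiboZero), and the differences ran from -0.27 to 0.29. At any fold, 8, 7 and 5 members had an adjusted p under 0.05 in the 3 comparisons, beside 81.1%, 79.1% and 45.9% of all genes. With the mouse as a block these counts were 10, 9 and 9 members, beside 87.2%, 83.6% and 57.8% of all genes. The block also added Sftpc to the calls of PolyA against NoSelect, at 1.01 ± 0.030 (SE, log2 scale; edgeR, adjusted p = 1.09e-11), so that 3 members passed there.

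The shortest member was higher in PolyA and most of the long ones lower. Sftpc, with the shortest merged exons at 1034 bases, was higher than in RiboZero by 0.90 ± 0.080 and than in NoSelect by 0.92 ± 0.091 (SE, log2 scale). Sftpb at 1968 bases and Napsa at 2660 bases were higher than in RiboZero by 0.34 and 0.30. Sftpa1 at 2860 bases and Sftpd at 2417 bases differed by -0.14 and 0.16, with adjusted p of 0.0886 and 0.101 without the mouse block and 0.000322 and 4.42e-06 with it (edgeR). Lamp3 (3356 bases), Lpcat1 (4632 bases) and Abca3 (9374 bases) were lower in PolyA than in RiboZero, at -0.68, -0.24 and -0.72. Against NoSelect the same 3 stood at -0.43, -0.02 and -0.71, where Lpcat1 did not pass (edgeR, adjusted p = 0.846), and Sftpb, Napsa, Sftpa1 and Sftpd stood at 0.10, 0.35, 0.11 and 0.50. Across the 10 members, Spearman's rho of the difference with merged exon length was -0.903 between PolyA and RiboZero. It was -0.842 between PolyA and NoSelect, and -0.139 between RiboZero and NoSelect. Over all protein-coding genes tested (15071, 15277 and 14699 in that order) it was -0.592, -0.635 and -0.201. Genes are not independent replicates, so these are descriptions. Sftpc made up 56.3% to 63.6% of the members' counts in PolyA and 38.3% to 44.4% in the other 2 preparations.

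**Figure D5:**
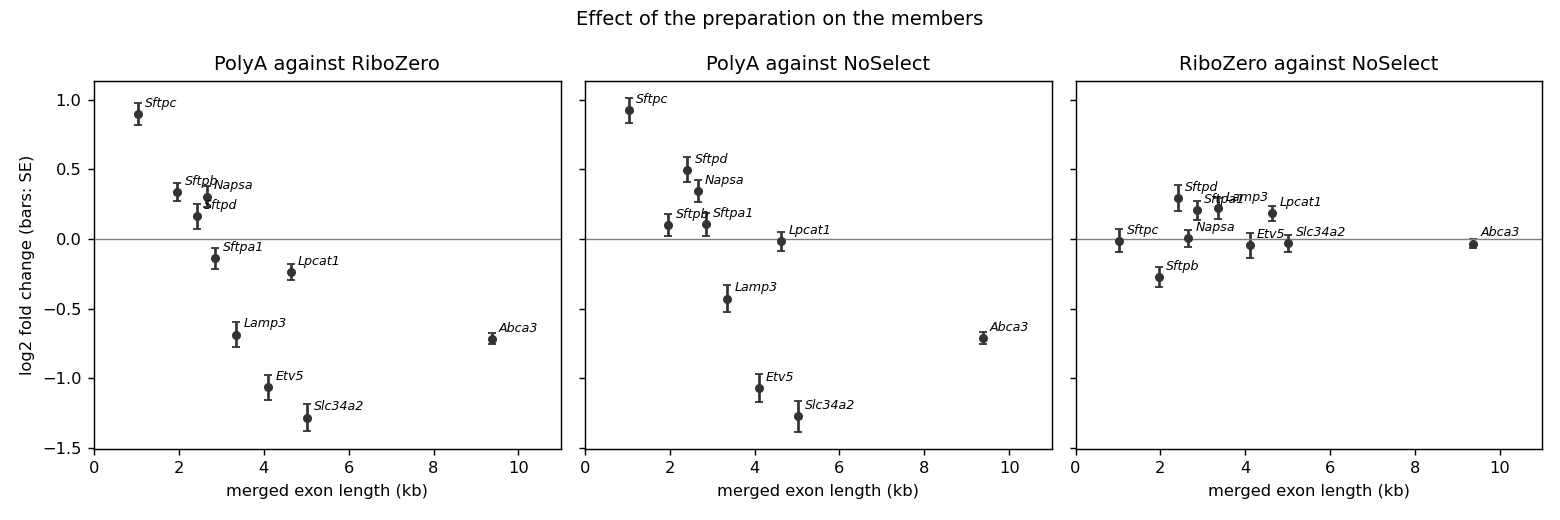
Log2 fold change between preparations (vertical axis, bars show the standard error) against the merged exon length of each member in kilobases, in 1 panel for each pair of preparations. In the first 2 panels the points fall from Sftpc at 0.90 and 0.92 to Slc34a2 at -1.28 and -1.27, with the longest gene Abca3 at -0.72 and -0.71, and in the third they stay between -0.27 and 0.29.

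Whether the knockout effect itself depended on the preparation was tested as an interaction, in a main fit that took the libraries of a mouse as independent. No member was called and 0 genes of all tested were (edgeR, 0% in each comparison), with 1.82%, 2.24% and 1.39% of all genes at an unadjusted p under 0.05. DESeq2 called 12, 15 and 9 genes and 0 members. The differences of the members' knockout effects ran from -0.22 to -0.00 between PolyA and RiboZero, from -0.28 to 0.06 between PolyA and NoSelect and from -0.06 to 0.11 between RiboZero and NoSelect, and 0 members had an unadjusted p under 0.05. With the mouse as a block, which the shared animals allow, 2, 6 and 1 of the 10 members had an unadjusted p under 0.05, beside 5.18%, 7.99% and 3.98% of all genes, and again 0 members were called. In that fit the 6 members of PolyA against NoSelect were Sftpa1, Lamp3, Slc34a2, Napsa, Lpcat1 and Etv5, all with a more negative knockout effect in PolyA, by -0.32 for Slc34a2 to -0.13 for Lpcat1 (lowest adjusted p 0.310, for Napsa).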

How the data were processed

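Gene-level estimated counts of all 32 libraries were deposited as a single table, in which 12.81% of values were not whole. Salmon 1.4.0, UMI-tools 1.1.1 and the build GRCm38 are named, without a role, per the submitters' processing notes; the annotation and the strand setting of the counting are not given in the sources used here. All 32 columns were matched by name. Estimated counts were rounded and tested in R 4.3.3 with edgeR 4.0.16 (TMM scaling, filterByExpr, glmQLFit, glmQLFTest, Benjamini-Hochberg adjustment over all rows tested). Genotypes were compared inside each preparation, preparations with genotype as a covariate, and both together as an interaction. DESeq2 1.42.0, other scaling and filters, a replicate block, a fit of all 32 libraries, mice 3 to 6 alone and leaving out each library were the alternatives. Normalised CPM uses the TMM library size. Deviations of mice were taken on log2(CPM + 0.1), with 100000 permutations per test. Gene positions and exon lengths came from GENCODE M21 (GRCm38), which may differ from the annotation used by the authors, and promoters from RefSeq (GRCm38.p6).

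The members, gene lists and tests were chosen with earlier results of these data known. All members were named, then the 12 pathway genes with the smallest adjusted p among those passing in any preparation, then 5 transcription factors whatever their values, and the 6 genes most like the members. Same-numbered libraries of different preparations come from the same mouse, and their deviations correlated at r of 0.390 to 0.744 for PolyA with RiboZero, 0.486 to 0.686 for PolyA with NoSelect and 0.400 to 0.547 for RiboZero with NoSelect. Equal numbers in WT and KO are different animals.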

Additional observations from a re-analysis of the deposited data

Results flagged for a closer look

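Over 60 groups, each of 1 member in 1 preparation and genotype, the highest or lowest library stood apart from the rest in 1. In the NoSelect libraries of WT mice, Sftpb was at 597.474 normalised CPM in mouse 6, against 701, 704 and 712 in mice 3, 5 and 4. Chance alone marks about 1 in 20 such groups. The gap between that library and the next was large for the range of the group, and mouse 6 was also the lowest WT animal for Sftpb in RiboZero (1771 normalised CPM) and PolyA (2961 normalised CPM).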

How the results depend on the processing

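With few mice per group, and 4 in NoSelect, calls near the threshold moved with single libraries. Genes called between genotypes were 579, 694 and 372 in RiboZero, PolyA and NoSelect. DESeq2 called 976, 1381 and 877, and one fit of all 32 libraries 891 in RiboZero and 1564 in PolyA. Mice 3 to 6 alone gave 255 in RiboZero. Members called in RiboZero were 2 under DESeq2, under a filter of at least 10 counts in every library, with mice 3 to 6 alone and in the fit of all 32 libraries. Members called in PolyA were 1 with no filter and 4 under DESeq2 and in the fit of all 32 libraries, and in NoSelect 4 under DESeq2. The ratios to Sftpc without KO 6 were added after seeing the data. Leaving out 1 library gave 380 to 644 genes and 1 to 3 members in RiboZero, 442 to 1066 genes and 1 to 4 members in PolyA, and 148 to 472 genes and 0 to 4 members in NoSelect. The lowest and highest were without RiboZero WT 5, without PolyA KO 2 and WT 2, and without NoSelect WT 5 and KO 6. In these fits fewer samples were tested, and otherwise the cause was not tested.

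Equal replicate numbers in WT and KO pair no animals, and their deviations correlated at r of -0.141 to 0.226 in PolyA, -0.098 to 0.201 in RiboZero and -0.140 to 0.169 in NoSelect. With the replicate block, 372 genes were called in RiboZero and 103 in NoSelect, and 0 members in NoSelect. For the interactions the block is the mouse; it gave 1 gene for PolyA with RiboZero and 1 for RiboZero with NoSelect, and 2, 6 and 1 members at an unadjusted p under 0.05. DESeq2 gave 12, 15 and 9 interaction genes, and mice 3 to 6 alone 1 for RiboZero with NoSelect.

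Genes called between preparations were 4292 (PolyA and RiboZero), 4619 (PolyA and NoSelect) and 752 (RiboZero and NoSelect). They were 6552 and 7039 with no filter for the first 2, and 2560, 2902 and 301 with at least 10 counts in every library. Ranked by the longest transcript instead of merged exons, 6 of 10 members kept their rank in RiboZero KO libraries.

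Values near 0 changed sign in some settings. Nkx2-1 was at 0.0038 with no filter, 0.072 with mice 3 to 6 and 0.0014 with all 32 libraries in RiboZero, at 0.026 with mice 3 to 6 in PolyA, and above 0 in some fits without 1 library. Over all such fits its range was -0.035 to 0.040 in RiboZero, -0.060 to 0.0096 in PolyA and -0.074 to 0.030 in NoSelect. Etv4 in PolyA was at 0.20 with mice 3 to 6 and -0.22 to 0.061 over fits without 1 library, and Lpcat1 in PolyA at -0.018 to -0.000155 without WT 2, KO 4 or WT 6, with a range of -0.018 to 0.091 over all such fits. Lpcat1 was at 0.045 for PolyA against NoSelect with no filter. For RiboZero against NoSelect, Sftpc was at 0.034 with the mouse block (edgeR, adjusted p = 0.0286), 0.038 with mice 3 to 6 and 0.0046 without KO 6, and Napsa at -0.0030 with median-of-ratios factors, -0.00014 with at least 10 counts and -0.0024 without mitochondrial, Lars2 and Gm42418 rows.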
